A study of Arabidopsis thaliana with 6 samples.

Results

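The TOUCH genes TCH1 to TCH4 of Arabidopsis thaliana were followed through the peak lists of an anti-FLAG chromatin immunoprecipitation. They were taken as the lines of the 4 lists whose assigned gene is TCH1/CAM2 (AT2G41110), TCH2/CML24 (AT5G37770), TCH3/CML12 (AT2G41100) or TCH4/XTH22 (AT5G57560). The rule found 10 of 41410 summit lines in all, at 3 of the 4 genes, since no list has a line assigned to AT2G41110. Of all nuclear genes 33.2% had a line in at least 1 list. The genes were chosen by their peak calls and fold enrichment in these same lists, so the values below are descriptions and were not tested. With 2 libraries against 2, an exact two-sided permutation test cannot give a p below 0.333.

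Chromatin came from seedlings fixed with 1% formaldehyde for 10 minutes. The tagged group, CND1-FLAG, is labelled pCND1-Flag/cnd1-3, a FLAG-tagged CND1 in the cnd1-3 mutant background, and the other group is untagged Col-0, the wild-type accession. Each genotype has 2 ChIP libraries, of which the peak lists were analysed, and 1 input. Both groups were precipitated with the same antibody, so the Col-0 peaks give the background of antibody and chromatin. Tag, transgene and cnd1-3 allele all separate the groups, and their parts cannot be told apart here. The labels do not say what drives the transgene beyond its name, how many lines were used, or whether replicates were grown separately.

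TOUCH genes were named for transcripts that accumulate quickly after plants are touched, bent or sprayed. Calcium rises in the cytosol after such stimuli, and calmodulins are small proteins that bind it through EF-hand motifs and then bind their target proteins. TCH1 is a name for a calmodulin gene, TCH2 and TCH3 encode calmodulin-like proteins of the same EF-hand type, and TCH4 encodes a xyloglucan endotransglucosylase/hydrolase, an enzyme that cuts and rejoins xyloglucan in the cell wall. The genes lie beside relatives: TCH3 is next to CAM2 on chromosome 2, and TCH4 is next to XTH25, of its own enzyme family, on chromosome 5. The name TCH1 is a synonym of CAM1 (AT5G37780) in the reference gene table and not of CAM2, and no list has a line assigned to CAM1 either.

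At TCH2, TCH3 and TCH4 a summit lay inside the gene at the same place in all 4 libraries, and both CND1-FLAG libraries had the higher fold enrichment there. Of 2017 genes with a summit inside in all 4 lists, 71.6% had both CND1-FLAG folds above both Col-0 folds. Among the TOUCH genes, TCH2 alone shows such a pattern by assigned gene. Lines were assigned to 2 of the 4 genes in CND1-FLAG replicate 1, to 3 in replicate 2 and to 1 in each Col-0 list. In these lists 25.9%, 21.9%, 13.7% and 12.9% of all 37899 nuclear genes had a line, in the same order. Both CND1-FLAG lists had TCH2 and TCH3, against 18.3% of nuclear genes, and both Col-0 lists had TCH2, against 8.99%. Of protein-coding nuclear genes these shares were 23.0% and 11.3%. TCH2 was in all 4 lists, as were 6.58% of nuclear genes, and TCH3 was in the CND1-FLAG pair alone, as were 7.79%. Among the 12573 nuclear genes that the lists assign, whose start and end they give, 16.0% had a summit inside the gene in all 4 lists. The way of looking inside the gene was added after the values were seen.

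**Figure D1:**
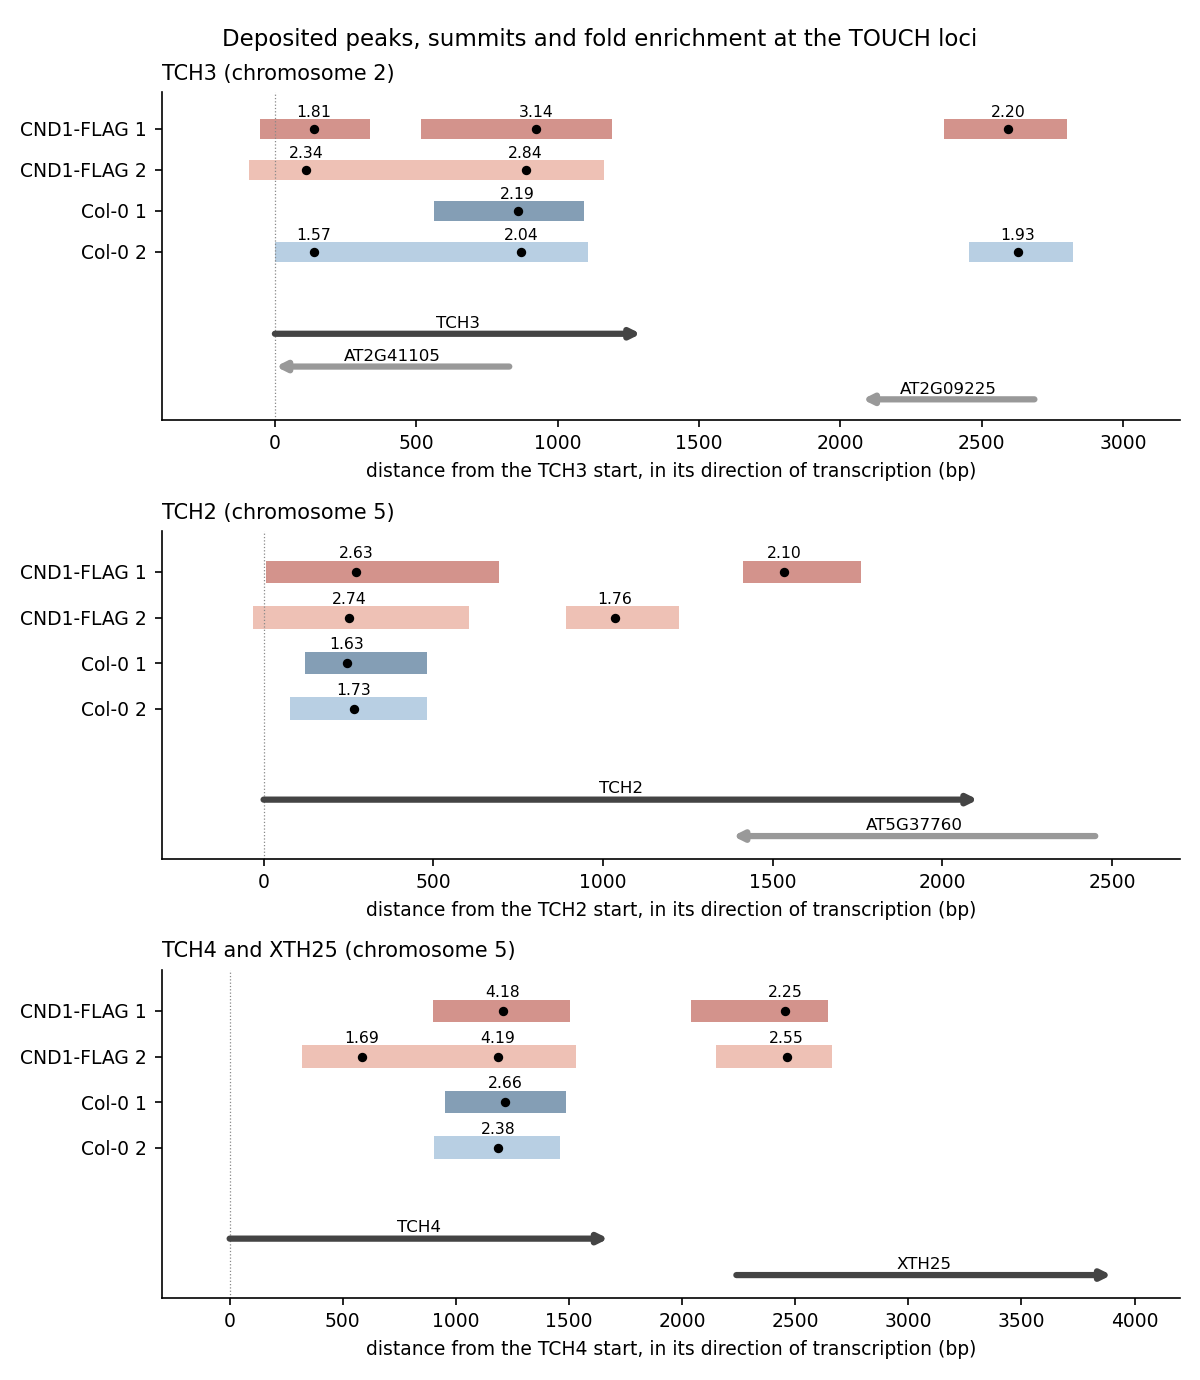
Peaks (bars), summits (points) and fold enrichment (numbers) in the 4 libraries around TCH3, TCH2 and TCH4. The horizontal axis is the distance in bp from the start of the TOUCH gene in its direction of transcription, and arrows are genes with their direction. The main summits of TCH3 and TCH4 lie towards the end of the gene and that of TCH2 near its start, in CND1-FLAG and Col-0 alike.

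TCH2, a calcium sensor of the calmodulin-like family, was the member whose peak every list assigned to it. The gene runs on the minus strand of chromosome 5 from 14997514 to 14999619 (TAIR10), and the peaks were labelled as promoter within 1 kb of the start. Their 4 summits lay 246 to 273 bp downstream of the start, within 27 bp of each other, and the stretch chr5:14999138-14999497 was common to all 4 peaks. Fold enrichment, the pile-up at the summit over its local background as the authors' peak caller gave it, was 2.63 in CND1-FLAG replicate 1 and 2.74 in replicate 2. It was 1.63 in Col-0 replicate 1 and 1.73 in Col-0 replicate 2. The genotypes did not overlap, with means of 2.69 ± 0.0731 and 1.68 ± 0.0696 (SD, n = 2 each) and a ratio of 1.60 ± 0.0790, whose error was propagated from both SDs.

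The peak at the start of TCH2 was wider in the tagged libraries, 687 and 638 bp against 360 and 405 bp in Col-0. The −log10 q was 24.6 and 24.2 in CND1-FLAG against 4.24 and 5.65 in Col-0. Within its own list the summit stood among the top 7.33% and 6.34% of nuclear summits by fold in CND1-FLAG, and among the top 51.1% and 35.8% in Col-0. Lists of different length and depth share no scale of rank. The tagged lists held further summits inside TCH2 that were not matched between replicates. In replicate 2 one lay 1036 bp from the start with a fold of 1.76, and in replicate 1 one lay 1535 bp from the start with a fold of 2.103. The latter falls where TCH2 overlaps AT5G37760, a gene on the opposite strand, to which the list assigned it. Neither Col-0 list had a second summit in the gene.

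TCH3, the calmodulin-like gene on the plus strand of chromosome 2 from 17138330 to 17139624, had lines under its own name in both CND1-FLAG lists and in no Col-0 list. By position the same gene had a summit in all 4 lists. A second gene, AT2G41105 (17138333 to 17139159), lies inside TCH3 on the opposite strand, and peaks of CND1-FLAG replicate 1 and of both Col-0 libraries within TCH3 were assigned to it. ChIP libraries carry no strand, so signal where both genes lie cannot be given to one of them.

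The stronger TCH3 summit lay 859 to 924 bp from the gene's start and 371 to 436 bp before its end, within 65 bp across libraries, in peaks that share chr2:17138894-17139424. All 4 of these summits lay outside AT2G41105, 30 to 95 bp upstream of its start, and inside TCH3. Its fold was 3.14 and 2.84 in CND1-FLAG replicates 1 and 2 and 2.19 and 2.04 in Col-0 replicates 1 and 2. The means were 2.99 ± 0.214 and 2.11 ± 0.105 (SD, n = 2 each), without overlap, and the ratio was 1.42 ± 0.124. Of the 4 lists, CND1-FLAG replicate 2 alone called this summit TCH3.

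A weaker TCH3 summit lay 111 to 138 bp from the start, in 3 of the 4 lists. Its fold was 1.81 and 2.34 in CND1-FLAG replicates 1 and 2 and 1.57 in Col-0 replicate 2, and Col-0 replicate 1 had no summit there. These 3 summits lay inside both TCH3 and AT2G41105. The tagged libraries differed from each other at this place by more than replicate 1 differed from Col-0 replicate 2. In CND1-FLAG replicate 2 and Col-0 replicate 2 this summit and the stronger one were called as 1 peak, of 1257 and 1108 bp, and in CND1-FLAG replicate 1 as separate peaks of 390 and 676 bp.

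TCH4, the wall enzyme gene on the minus strand of chromosome 5 from 23307006 to 23308680, had the highest fold of the members. It had lines in CND1-FLAG replicate 2 alone by assigned gene, as had 942 other genes. Of nuclear genes 10.4% had a line in exactly 1 list, whichever list it was. By position a summit lay 1186 to 1219 bp downstream of the TCH4 start in all 4 lists, 456 to 489 bp before the end of the gene and within 33 bp across libraries. The peaks share chr5:23307219-23307728, which lies wholly inside TCH4. Fold enrichment was 4.18 and 4.19 in CND1-FLAG replicates 1 and 2 and 2.66 and 2.38 in Col-0 replicates 1 and 2. The genotypes did not overlap, with means of 4.18 ± 0.00808 and 2.52 ± 0.204 (SD, n = 2 each) and a ratio of 1.66 ± 0.134.

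The TCH4 summit stood among the top 1.15% and 1.38% of nuclear summits by fold in the CND1-FLAG lists and among the top 2.31% and 4.03% in the Col-0 lists. Its −log10 q was 56.9, 52.4, 24.3 and 18.6 in the order of CND1-FLAG and Col-0 replicates. In 3 of the lists it was assigned to XTH25, whose start lies 1021 to 1054 bp from the summit and outside every one of these peaks. In each list the assigned gene was the one whose start lay nearer to an edge of the peak. The edges were 901, 952 and 902 bp from the TCH4 start and 736, 752 and 779 bp from the XTH25 start in CND1-FLAG replicate 1 and the Col-0 replicates. In CND1-FLAG replicate 2 the peak extended over 1208 bp and its edge came to 322 bp from the TCH4 start, against 711 bp from that of XTH25. The extension held a second summit at 585 bp from the TCH4 start with a fold of 1.69, which no other list had.

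XTH25 (23304782 to 23306440, minus strand), the neighbour of TCH4, had a peak across its own start in both CND1-FLAG lists, and Col-0 had none there. The summits lay 216 and 223 bp inside XTH25, with folds of 2.25 and 2.55 and −log10 q of 11.7 and 15.0. TCH4 had no called peak across its start in any of the 4 lists.

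**Figure D2:**
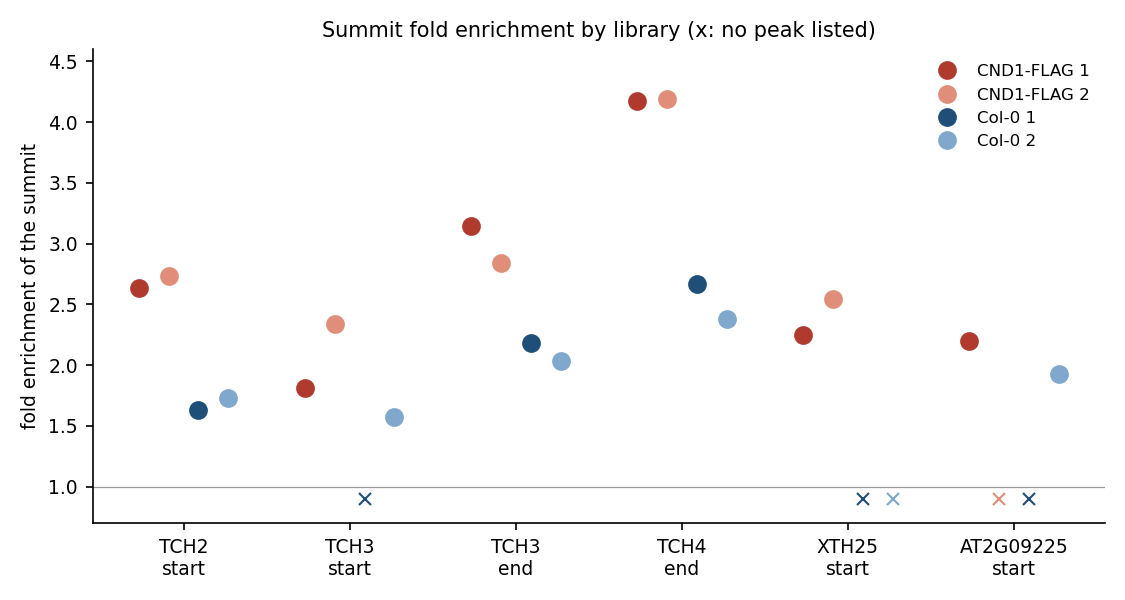
Fold enrichment of the summit (vertical axis, ratio over local background) in each library at 6 places, with a cross where the list has no peak. Both CND1-FLAG libraries lie above both Col-0 libraries at the TCH2 start (2.63 and 2.74 against 1.63 and 1.73), the TCH3 end (3.14 and 2.84 against 2.19 and 2.04) and the TCH4 end (4.18 and 4.19 against 2.66 and 2.38). The same order holds in 71.6% of the 2017 genes with a summit inside in all 4 lists.

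TCH1/CAM2, the calmodulin gene after TCH3 on chromosome 2, had no line of its own. In the reference gene table AT2G09225, a long noncoding RNA gene, lies inside CAM2. A peak across the start of AT2G09225 (17140408 to 17141016, minus strand) was listed in CND1-FLAG replicate 1 with a fold of 2.20 and in Col-0 replicate 2 with a fold of 1.93, and in neither other library. Their summits were 36 bp apart. At this place 1 library of each genotype had a peak, so no difference between genotypes can be read, and a missing line means that no summit passed the authors' threshold. The smallest −log10 q in any list was 1.301.

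The number of fragments behind each fold was worked out from the fold and the p-value of the summit. At the TCH4 end the CND1-FLAG libraries had 196 (95% Poisson interval 169.5 to 225.4) and 180 fragments (154.7 to 208.3), and the Col-0 libraries 227 (198.4 to 258.5) and 214 (186.3 to 244.7). The local background was 46.2 and 42.2 in CND1-FLAG. In Col-0 it was 84.3 and 89.3, after dividing the lists' own values by the scale given below. All 4 intervals at the summit overlapped, and the Col-0 backgrounds were the higher ones. The folds of the Col-0 lists rest on summit counts multiplied by 0.723 and 0.739, and those of CND1-FLAG on unscaled summit counts. On that scale the Col-0 summits at the TCH4 end were 164.2 and 158.2, below the CND1-FLAG ones, and the backgrounds were 61 and 66, still the higher ones. At the TCH2 start the fragments numbered 166 and 153 in CND1-FLAG and 159 and 165 in Col-0, over backgrounds of 62.4 and 55.3 against 96.8 and 94.7. At the TCH3 end they numbered 158 and 137 against 180 and 164, over backgrounds of 49.6 and 47.6 against 81.6 and 79.8. These Col-0 backgrounds at TCH2 and TCH3 were divided by the scale as well. The intervals cover counting error only. Each list has its own depth, while each genotype has 1 input for its 2 ChIP libraries. Which input a list used is not given, so folds of different lists are not on a common scale. Replicates of a genotype may share their background. In that case their folds are not independent, and the SDs given above leave out the error of the background. On the lists' own scale the Col-0 summits were 115 and 122 at the TCH2 start and 130.2 and 121.2 at the TCH3 end, all below those of CND1-FLAG, over backgrounds of 70 at the TCH2 start and 59 at the TCH3 end in either replicate. As listed and after that division the Col-0 backgrounds were higher in all 3 places, but neither form puts the genotypes on a common scale. At these places the Col-0 backgrounds as listed were whole numbers, and those of CND1-FLAG were not. Whether the CND1-FLAG backgrounds had been scaled was not tested, so the order of backgrounds between genotypes is not read. The order at the summit depended on the scale, and the part of sequencing depth in the folds was not tested.

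**Figure D3:**
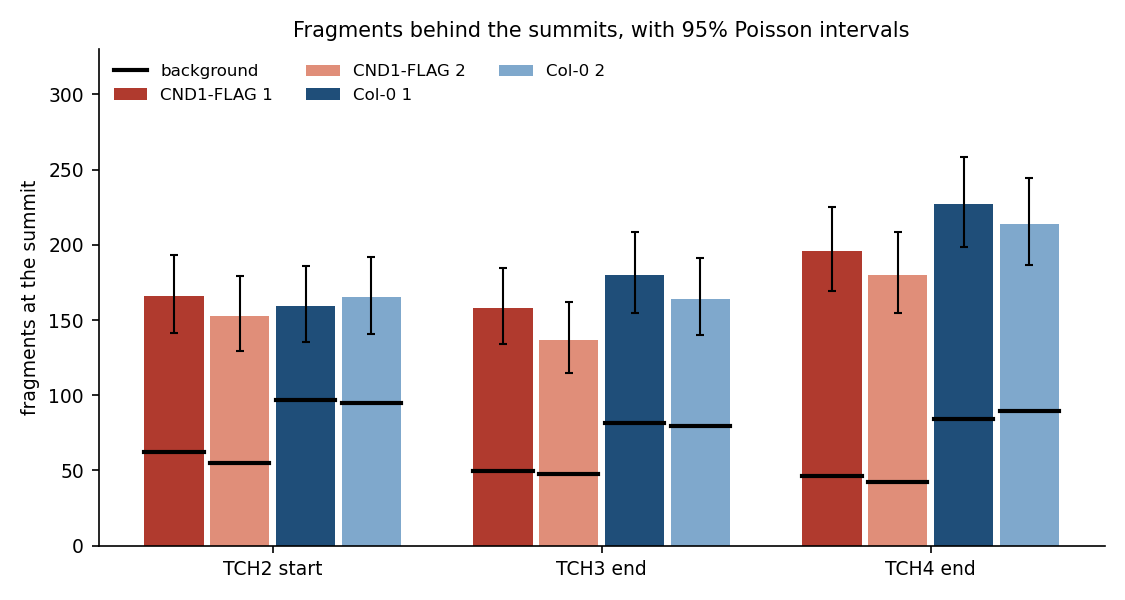
Fragments at the summit (bars, with 95% Poisson intervals) and the local background (black lines) at the 3 places with a summit in all 4 lists. At the TCH4 end 196 and 180 fragments stand over 46.2 and 42.2 in CND1-FLAG, and 227 and 214 over 84.3 and 89.3 in Col-0. The Col-0 bars are without the scaling of the lists. The Col-0 backgrounds are the lists' values of 61 and 66 divided by that scale, and are not counts. The CND1-FLAG backgrounds are as listed and are not whole counts either, so backgrounds are not compared between genotypes.

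A higher fold in CND1-FLAG was common among places that all lists share. Of 2426 nuclear regions with a peak in all 4 lists, 67.8% had both CND1-FLAG folds above both Col-0 folds, and of 2017 genes with a summit inside in all 4 lists 71.6% did. The 3 TOUCH genes belong to this majority. The median ratio of the mean CND1-FLAG fold to the mean Col-0 fold over the 2426 regions was 1.20, with quartiles of 1.06 and 1.40. TCH3 at 1.42 was above 76.5% of the regions, TCH2 at 1.60 above 86.9% and TCH4 at 1.66 above 89.4%.

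Whether the ratio grew with the strength of a region depended on how strength was taken. Sorted by mean fold over the 4 lists, which holds the CND1-FLAG folds that also make up the ratio, the lowest 25% of regions had a median ratio of 1.10 and the highest 25% one of 1.48. Sorted by the Col-0 folds alone, which are the divisor of the ratio, these medians were 1.27 and 1.17. Either order shares values with the ratio, so no relation is read from it. By their Col-0 folds TCH3 and TCH4 were among the highest 25% of regions, whose quartiles of the ratio were 0.98 and 1.52, and TCH2 was in the second of the 4 classes, with quartiles of 1.09 and 1.33. TCH2 and TCH4 lay above the upper quartile of their class by Col-0 fold and TCH3 below it. By mean fold TCH2, TCH3 and TCH4 were all among the highest 25% of regions, whose quartiles of the ratio were 1.21 and 1.82. In that class TCH2 and TCH4 lay between the median of 1.48 and the upper quartile, and TCH3 between the lower quartile and the median. Relative to the median of the 2426 regions the ratios were 1.33 for TCH2, 1.18 for TCH3 and 1.39 for TCH4.

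**Figure D4:**
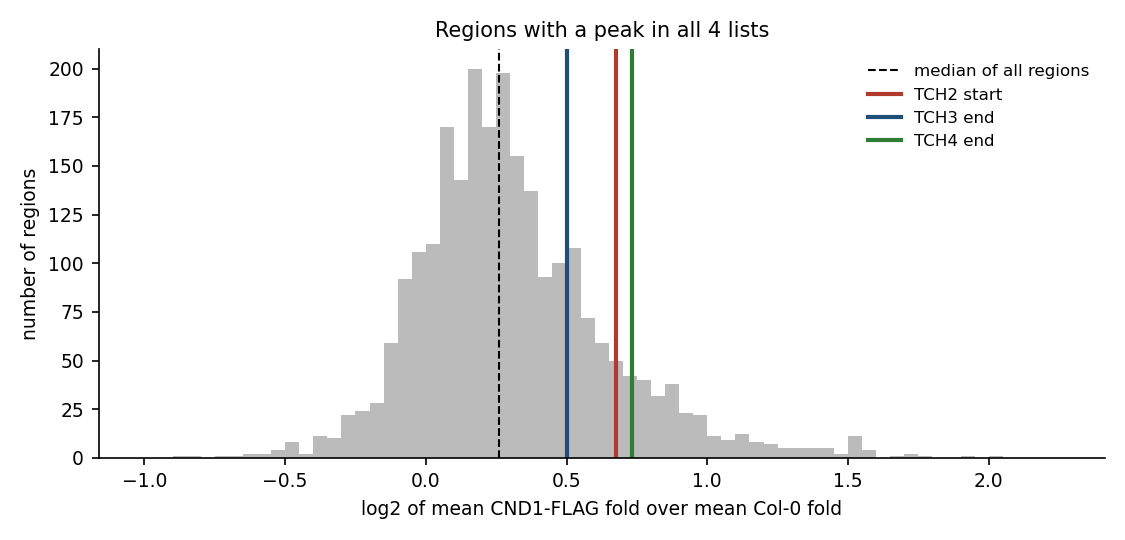
Distribution of the log2 ratio of mean CND1-FLAG to mean Col-0 fold (horizontal axis) over the 2426 regions with a peak in all 4 lists (vertical axis, number of regions). The coloured lines mark TCH2, TCH3 and TCH4, at 0.67, 0.50 and 0.73, to the right of the dashed median.

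The members differed in where the main summit lay. In CND1-FLAG replicate 1 it lay at 13.0% of the gene's length for TCH2, 71.4% for TCH3 and 72.1% for TCH4. Over the 2017 genes with a summit inside in all 4 lists the strongest summit of that library lay at a median of 42.7% of the length (quartiles 22.8% and 64.5%), and past the middle in 41.0% of genes. TCH3 and TCH4 were therefore beyond the upper quartile and TCH2 below the lower one. The files give no exon or intron for these summits, because every one of them was labelled as promoter within 1 kb of an assigned start.

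The genes with the most similar folds were looked up as those with a line in the same lists and the smallest Euclidean distance of log2 fold. For TCH2 these were AT4G23820 and STP9 (AT1G50310), a sugar transporter gene, both at a distance of 0.10 over 4 lists among 2494 other genes by assigned gene. For TCH3, with lines in both tagged lists, they were AT5G19250 and AT1G34315, both at 0.08 over 2 lists among 2951 genes. These TCH3 folds come from different places, the start summit in replicate 1 (1.81) and the stronger one in replicate 2 (2.84). TCH4, by its single list, had no gene nearer than AT2G05705 at 0.47 and AT5G63905 at 0.50. Taken by a summit inside the gene in all 4 lists, among 2016 other genes, the nearest to TCH2 were PPR336 (AT1G61870) at 0.07 and UGT73B5 (AT2G15480) at 0.09. On the same measure the nearest to TCH3 were HSFA1B (AT5G16820) at 0.10 and PEX3 (AT2G15880) at 0.11, and the nearest to TCH4 were ATCP1 (AT5G49480) at 0.17 and PME1 (AT1G53840) at 0.18. PME1 is named as a pectin methylesterase and HSFA1B as a heat shock factor.

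Relatives of the TOUCH genes were counted by assigned gene, without the 4 members. Of 18 other calmodulin and calmodulin-like genes named in the reference table, 4 had lines in both CND1-FLAG lists, 2 in both Col-0 lists, and 11 in none. For protein-coding nuclear genes the share with lines in both CND1-FLAG lists was 23.0% and in both Col-0 lists 11.3%, against 22.2% and 11.1% of these relatives. CML38 (AT1G76650), a calmodulin-like gene, had folds of 3.47 and 3.91 in CND1-FLAG and 3.09 and 3.00 in Col-0. CML23 (AT1G66400), the closest relative of TCH2, had 2.66 and 2.301 in CND1-FLAG and no line in Col-0. CML41 (AT3G50770) had 1.69 and 1.93, again in CND1-FLAG alone. CAM3 (AT3G56800) had 1.58 and 1.71 by assigned gene in CND1-FLAG alone, but summits inside CAM3 were listed at 2.44 and 2.82 in CND1-FLAG and at 1.705 in Col-0 replicate 2.

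Of 32 other XTH genes, 9 had lines in both CND1-FLAG lists (28.1%), 4 in both Col-0 lists (12.5%) and 19 in none (59.4%). The shares of protein-coding nuclear genes were 23.0%, 11.3% and 58.5%. XTH24 (AT4G30270) had folds of 3.23 and 3.14 in CND1-FLAG and no Col-0 line. XTH18 (AT4G30280) had 2.98 and 2.56 against 2.03 and 2.29 in Col-0, and XTH4 (AT2G06850) had 2.20 and 2.104 against 1.71 and 1.54. XTH10 (AT2G14620) had 2.17 and 2.12 and a line in Col-0 replicate 2 alone, at 1.52. XTH14 (AT4G25820), below the genes named by rank in the CND1-FLAG lists, overlapped between genotypes with 2.77 and 2.02 against 2.62 and 2.21. XTH25 is counted among the 4 with lines in both Col-0 lists, but its Col-0 lines are the peak inside TCH4.

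Genes of touch signalling were the stretch-related channels MCA1, MCA2, MSL9 and MSL10, the wall-sensing receptor kinase FERONIA (FER), the calmodulin-binding CAMTA factors, the MYC2 to MYC4 factors of jasmonate signalling, jasmonate synthesis genes and a gibberellin oxidase. Of these 18 genes, 7 had lines in both CND1-FLAG lists (38.9%), 6 in both Col-0 lists (33.3%) and 8 in none (44.4%). For protein-coding nuclear genes the shares were 23.0%, 11.3% and 58.5%. OPR3 (AT2G06050), an enzyme of jasmonate synthesis, had folds of 5.22 and 4.56 in CND1-FLAG against 2.26 and 2.17 in Col-0. MYC2 (AT1G32640) had 4.15 and 4.31 against 1.95 and 1.68. FER (AT3G51550) had 3.06 and 2.97 against 2.05 and 2.17, while AOS (AT5G42650), another jasmonate enzyme, overlapped between genotypes with 2.21 and 1.82 against 1.84 and 1.97. CAMTA5 (AT4G16150) had 1.85 and 1.80 in CND1-FLAG alone.

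Early touch and wound response genes, among them cold and ethylene regulators, had the highest share with lines of the 4 gene lists. The lists were chosen with earlier results of these data known, so their order is a description and nothing about touch genes is read from it. Of 15, 9 had lines in both CND1-FLAG lists (60%), 7 in both Col-0 lists (46.7%) and 5 in none (33.3%). Among protein-coding nuclear genes these shares were 23.0%, 11.3% and 58.5%. The list shares 3 genes with the calmodulin list, CML38 and CML23 among them, and without these 7 of 12 (58.3%) had lines in both CND1-FLAG lists and 6 (50%) in both Col-0 lists. ZAT10 (AT1G27730), a zinc finger repressor, had folds of 7.42 and 7.58 against 5.63 and 4.74 in Col-0. CBF2 (AT4G25470) and CBF1 (AT4G25490), cold-response factors, had 7.14 and 7.29 against 2.13 and 2.23, and 6.88 and 6.66 against 2.51 and 2.08. ACS6 (AT4G11280), an ethylene synthesis enzyme, had 5.10 and 4.92 against 1.77 and 1.66. ZAT12 (AT5G59820) had 4.898 and 4.74 against 2.76 in both Col-0 lists. The median fold of the listed genes with a line was 4.997 and 4.74 in CND1-FLAG and 2.51 and 2.23 in Col-0. These medians rest on 10 and 9 genes in CND1-FLAG and 7 in each Col-0 list. Over all nuclear genes with a line the median was 1.99, 1.95, 1.68 and 1.67.

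**Figure D5:**
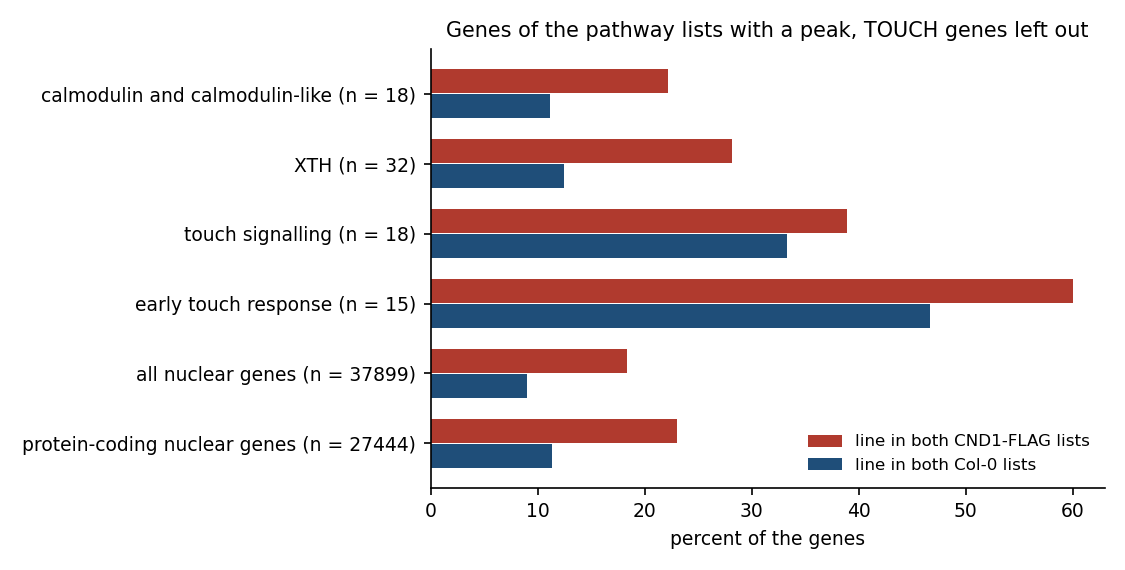
Percent of genes (horizontal axis) with a line in both CND1-FLAG lists and in both Col-0 lists, for the 4 lists of related genes without TCH1 to TCH4 and for all nuclear and all protein-coding nuclear genes. The early touch response genes reach 60% and 46.7%, and the calmodulin genes, at 22.2% and 11.1%, lie beside protein-coding genes at 23.0% and 11.3%.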

How the data were processed

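Peak lists of 4 ChIP libraries were used. Per the submitters' processing notes, fastp 0.19.11, BWA 0.7.12 and MACS2 2.1.0 were used with TAIR10. Neither threshold nor input of a list is given in the sources used here. In the deposited lists the signal column holds a ratio, fold over background, per the file headers. Deposited p and q are given as −log10 values. The deposited score equals −log10 q times 10 without decimals. Remaining deposited columns are positions and distances in bp, counted from 1. The members and gene lists were chosen with earlier results of these data known. Genes were named by rule: the members and their neighbours, up to 5 genes of each list by the worse of their ranks by fold in the CND1-FLAG lists, and the 2 genes nearest to each member. Places inside a gene, the order by Col-0 fold, the scaled fragments, MSL9, MSL10, MCA1, MCA2, LOX2 and XTH14, and genes of the closing section were chosen after their values were seen. Values were computed with Python 3.11.15, pandas 2.3.3 and scipy 1.17.1. A gene's fold is that of its highest summit, and peaks sharing 1 bp were merged to regions. Gene names came from the TAIR10.1 reference gene table, in which all 12573 nuclear assigned genes were found.

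Pile-ups were solved from fold (1 is added to pile-up and background before dividing) and from the Poisson p-value. In each list, 60 of 60 held-out summits came out whole within 0.01 fragments, after dividing by a scale of 0.723 and 0.739 in the Col-0 lists. The steps were tested on simulated lists. Read totals and sequences were not used here.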

Additional observations from a re-analysis of the deposited data

How the results depend on the processing

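Counts of TOUCH genes are small and move with the threshold. With −log10 q of at least 5, and equally with a fold of at least 2, genes with a line in both CND1-FLAG lists fell from 2 to 1 and in both Col-0 lists from 1 to 0. By a summit inside the gene, an alternative chosen after seeing the data, both counts were 3. Leaving out each library gave 2 to 3 for CND1-FLAG, the 3 without CND1-FLAG replicate 1 through TCH4, and 1 in each case for Col-0. The calmodulin count of 4 became 2 with −log10 q of at least 5 and 2 with a fold of at least 2, the touch signalling count of 7 became 4 and 3, and the XTH count of 9 became 4 with promoters within 1 kb alone. Without CND1-FLAG replicate 2 the calmodulin count was 6. The early touch response count was 8 to 10 throughout.

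The ratios of CND1-FLAG to Col-0 fold for TCH2, TCH3 and TCH4 were above 1 under every alternative that gave a value. For left-out libraries this was fixed in advance, since both CND1-FLAG folds lay above both Col-0 folds at each place. The settings of q, fold and promoter gave the main ratio again or none. No support is read from the direction of these ratios. Left-out libraries gave 1.55 to 1.64 for TCH2, 1.35 to 1.49 for TCH3 and 1.57 to 1.76 for TCH4. With the median of all summits in place of the highest they were 1.45, 1.27 and 1.41, and divided by the median ratio of genes assigned in all 4 lists, a set without TCH3 and TCH4, 1.32, 1.17 and 1.37. TCH2 gave no ratio with −log10 q of at least 5, since the line of Col-0 replicate 1 was lost. With a fold of at least 2 TCH2 gave none either, since both Col-0 lines were lost. With 50% reciprocal overlap the places shared by every pair of lists fell from 3 to 1, as some lists joined summits into 1 longer peak at TCH3 and TCH4. No paired analysis was possible because the replicate numbers tie no samples together in the labels and no result comes from a test. Depth limits the comparison: a place without a line may hold signal below the threshold.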

Other observations

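In the early touch response list, WRKY40 (AT1G80840), a transcription factor gene, also loses lines through assignment. It has a line under its own name in CND1-FLAG replicate 1 alone, at a fold of 5.91. Summits inside it were listed in all 4 libraries, at 5.91 and 5.32 in CND1-FLAG and 3.17 and 3.27 in Col-0. Over each list, 6.90% and 7.23% of the nuclear summits of CND1-FLAG replicates 1 and 2, and 8.76% and 8.83% of those of Col-0 replicates 1 and 2, lay inside a gene other than the assigned one and outside the assigned one. These shares count only genes whose coordinates the lists give.

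CML37 (AT5G42380), a calmodulin-like gene, was listed in both Col-0 libraries, at 1.89 and 1.61, and in CND1-FLAG replicate 1 alone, at 1.53. With the TOUCH genes left out, of which TCH2 had lines in both Col-0 lists, CML38 was the other calmodulin-like gene with lines in both. WRKY40 and CML37 were picked after their values were seen.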
